A study of Mus musculus with 8 samples.

Results

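The mitochondrial ribosomal protein genes, named Mrpl for the large subunit and Mrps for the small one, were followed through 8 RNA sequencing libraries of mouse calvarial osteoblast cultures. They were taken by symbol, as Mrpl or Mrps followed by a number and at most 1 letter, which gave 78 of the 25239 symbols in the count table, 49 of them named Mrpl and 29 named Mrps. The calvaria is the skull cap, and osteoblasts are the cells that lay down bone. Polyadenylated RNA was sequenced from 4 libraries labelled as a knockout with the genotype KO(OSX-SphK2) and from 4 libraries of WT littermates, which served as controls. Each group carries the numbers 1 to 4. Sphk2 encodes sphingosine kinase 2, and OSX is a name of osterix, a transcription factor of the osteoblast lineage. The series title asks how osteoblasts act on neutrophil development. The mice's age, the alleles behind the genotype and the number of animals per library are not stated in the sources used here, so the p-values cover only variation among these libraries, part of which may be technical.

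Mitochondria keep their own ribosome, which translates the few proteins encoded in mitochondrial DNA, all of them subunits of the respiratory chain and the ATP synthase. Its RNA comes from the mitochondrial genome, but every one of its proteins is encoded in the nucleus, made on cytosolic ribosomes and imported. Some of these proteins have counterparts in bacterial ribosomes, and others exist only in mitochondria. Their numbering follows naming history in places, so that Mrps18a and Mrps30 sit in the large subunit and Mrps36 is now known as a component of the 2-oxoglutarate dehydrogenase complex. By structure the 78 genes were therefore placed as 30 large-subunit proteins with a bacterial counterpart, 21 mitochondria-specific large-subunit proteins, 16 small-subunit proteins with a bacterial counterpart and 10 mitochondria-specific small-subunit proteins, with Mrps36 in no class. Mrps18a and Mrps18b, relatives of a bacterial protein that sit at other places than it does, were counted as mitochondria-specific. The RNAs encoded in mitochondrial DNA were not analysed here.

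The libraries labelled knockout held 15689043, 17928713, 17433571 and 14347495 counts for numbers 1 to 4, and the control libraries 19065421, 17946097, 17410977 and 14571389. Sphk2 itself was at 69.7, 72.3, 72.1 and 131.1 CPM (counts as a share of the library, scaled between libraries with TMM factors) in the libraries labelled knockout and at 75.8, 64.2, 82.5 and 133.8 CPM in controls, so its level does not check the labels and directions below rest on the labels alone. Exons of Dbp and Rpl18 overlap Sphk2 on the other strand, and strand use in counting is not stated in the sources. Macrophage markers summed to 33454 to 56132 CPM over the 8 libraries, and osteoblast markers to 4412 to 17303 CPM. Labelled knockout 1 stood apart for some osteoblast markers, with Ibsp at 1082, Bglap at 42.3, Bglap2 at 40.7, Dmp1 at 13.7 and Phex at 9.80 CPM. In the other libraries Ibsp was at 0.66 to 49.2 CPM, and Bglap, Bglap2, Dmp1 and Phex were under 1 CPM. The part of this in the results below was not tested. Proliferation genes moved with the labelled genotype, summing to 1290, 1456, 1359 and 948 CPM in labelled knockout 1 to 4 and to 477, 739, 573 and 767 CPM in controls 1 to 4, and their part in the results below was not tested. The libraries numbered 4 stood apart in both groups. There, 10 osteoclast markers summed to 6748 CPM in the library labelled knockout and to 10222 CPM in the control, against 176 to 189 CPM and 172 to 278 CPM in numbers 1 to 3 of the same groups. Both libraries numbered 4 were above the 6 others for 9 of those 10 osteoclast markers, for 7 of 20 macrophage markers, for 1 of 13 osteoblast markers, for 0 of 15 proliferation genes and for 1 of 12 neutrophil markers, Elane, on a single count in each. The share over the 12837 genes tested below was 34.2%. Of the neutrophil markers 9, among them Ly6g, Elane and Mpo, were under 1 CPM in all libraries. Results are therefore given with all 8 libraries and with numbers 1 to 3.

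The mitochondrial ribosomal genes followed that split closely. Together they took 0.142%, 0.145%, 0.146% and 0.219% of all counts in labelled knockout 1 to 4 and 0.137%, 0.135%, 0.141% and 0.275% in controls 1 to 4. Their summed level was 1383, 1411, 1417 and 2287 CPM in the libraries labelled knockout, against 1387, 1361, 1432 and 2801 CPM in controls. Numbers 1 to 3 of both groups thus lay in 1 narrow band, at 1404 ± 17.9 CPM for labelled knockout and 1394 ± 35.9 CPM for control (SD, n = 3 each), and the libraries numbered 4 were 1.63 and 2.01 times the mean of the other libraries of their group. With all 8 libraries the group means were 1625 ± 442 CPM in labelled knockout and 1745 ± 704 CPM in control (SD, n = 4 each), and both SDs were several times the difference of the means. In a bulk culture, a different share of cells of a given type and a different amount of RNA per cell cannot be told apart.

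**Figure D1:**
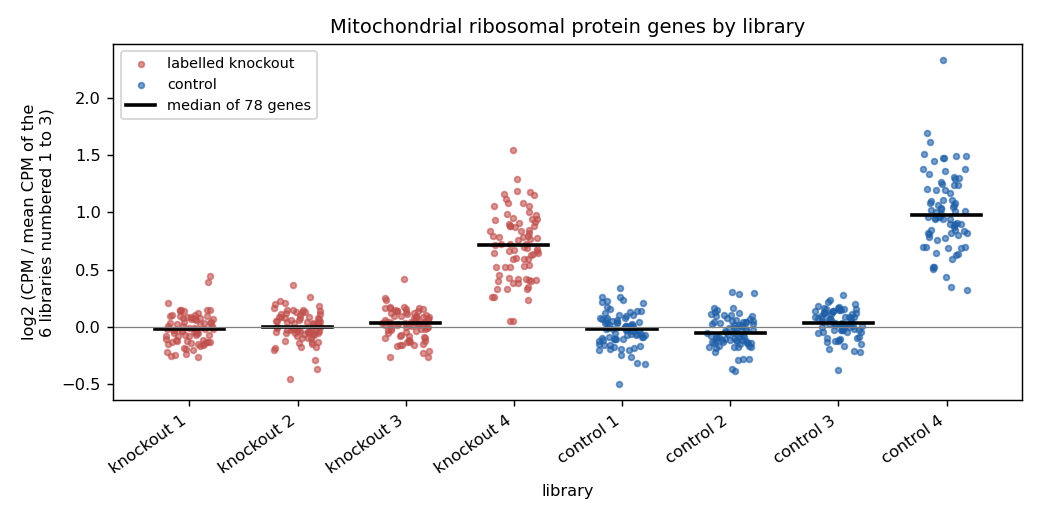
Level of each of the 78 genes in each library (points, horizontally jittered), as log2 of its CPM over its mean CPM in the 6 libraries numbered 1 to 3; black bars are medians. The 6 libraries numbered 1 to 3 are centred on 0, and both libraries numbered 4 lie above them, with all 78 genes above the mean of numbers 1 to 3 of their own group.

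All 78 genes were expressed at a depth that allowed testing. A gene's count in a library ran from 79, for Mrpl47, to 1144, for Mrpl12, and the mean level of a gene over the 8 libraries ran from 6.59 to 41.0 CPM with a median of 20.4 CPM, against a median of 27.0 CPM over the 12837 genes tested. Levels of different genes were compared per kilobase of the union of their exons in GENCODE M21. On that scale the median gene was at 8.48 CPM per kilobase and the middle of the distribution spanned 4.45 to 15.0 CPM per kilobase between its quartiles. The class medians were 10.5 CPM per kilobase for large-subunit proteins with a bacterial counterpart, 8.97 for mitochondria-specific large-subunit proteins, 8.19 for small-subunit proteins with a bacterial counterpart and 5.86 for mitochondria-specific small-subunit proteins, each class spreading over far more than these distances.

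Mrps21, Mrpl34 and Mrpl28, which all have bacterial counterparts, had the highest levels per length, at 39.0, 29.4 and 25.3 CPM per kilobase. Mrps21 (chromosome 3, 95862634 to 95871519, minus strand) was at 22.4, 22.9, 26.3 and 43.5 CPM in labelled knockout 1 to 4 and at 23.8, 22.5, 23.5 and 45.8 CPM in controls 1 to 4. Its groups covered nearly the same range, with both libraries numbered 4 highest. Mrpl34 was at 12.5, 15.1, 14.4 and 27.2 CPM in labelled knockout and at 11.6, 11.5, 13.3 and 37.2 CPM in control. Mrpl28 was at 32.9, 31.6, 30.7 and 47.3 CPM in labelled knockout and at 28.0, 25.6, 30.5 and 52.6 CPM in control. The lowest per length were Mrpl47 at 1.49, Mrps35 at 1.64 and Mrps10 at 1.87 CPM per kilobase. The order depends on which transcript length is used: with the longest transcript alone Mrps21 stayed rank 1 and Mrpl47 rank 78, but Mrpl34 moved to rank 8, Mrpl28 to rank 5, Mrps35 to rank 76 and Mrps10 to rank 72.

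The balance between the subunits hardly varied. Genes named Mrpl summed to 919, 933, 932 and 1518 CPM in labelled knockout and to 922, 907, 950 and 1845 CPM in control, and genes named Mrps to 464, 478, 485 and 768 CPM in labelled knockout and to 466, 454, 482 and 956 CPM in control. With proteins placed by structure, the large subunit made up 69.5% ± 0.379 of the summed CPM in labelled knockout and 69.6% ± 0.477 in control (SD, n = 4 each), and it stayed between 68.9% and 70.0% in the 8 libraries. The libraries numbered 4 therefore differed from the rest mainly in the total. Their share was the lowest of each group, at 68.9% in control 4 against 69.8% to 69.9% in controls 1 to 3. Labelled knockout 4 was at 69.2%, against 69.3% to 70.0% in labelled knockout 1 to 3.

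The genes lie scattered over 17 chromosomes, with the most on chromosomes 11 (11 genes), 17 (8 genes) and 6 (7 genes). Of the 78, 18 (23.1%) have a divergent neighbour, a protein-coding gene on the other strand whose start lies within 1000 bases of theirs, against 1238 of the 12188 protein-coding genes tested (10.2%). Examples are Mrps12 with Sars2, the mitochondrial seryl-tRNA synthetase, at 172 bases, and Mrpl49 with Fau, a cytosolic ribosomal protein gene, at 59 bases. Exons of another gene overlap on the opposite strand for 28 genes (35.9%, against 31.5% of protein-coding genes tested) and on the same strand for 8 (10.3%, against 8.50%). Strand use in counting is not stated in the sources, so counts of such genes may hold reads of their neighbours.

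Promoter sequence was in the RefSeq table (GRCm38.p6, 250 bases before to 50 after each start) for 69 of the 78 genes. It was searched on both strands for 3 motifs of factors linked to nuclear genes for mitochondrial proteins: GCGC, any base, then TGCGC for nuclear respiratory factor NRF1, CCGGAAG for the ETS family, to which the GABP complex belongs, and AAGATGG for YY1. The NRF1 letters were in the promoters of 13 genes (18.8%), against 11.4% of the 10207 genes tested with a promoter in the table and 4.60% of all 32851 promoters of that length. The ETS letters were in 26 (37.7%), against 20.0% and 8.86%, and the YY1 letters in 13 (18.8%), against 8.52% and 6.34%. A gene counted once if any of its promoters held the letters, while the 32851 promoters were counted singly. Only the shares of genes tested therefore have the same unit as those of the members. At least 1 of the 3 was present for 43 genes (62.3%), against 34.7% of the genes tested, and matches to different motifs overlapped in 0 of the 75 promoters. A match is a description of the letters only. The promoters of 3 genes are shown because Mrpl30 is the member called in the comparison of genotypes below, Mrpl12 has the same NRF1 letters and a high level in control number 4, and Mrps18a is the large-subunit paralog described below and has the ETS letters. Each is the 250 bases before the RefSeq start, on the plus strand of GRCm38.p6, with the match in capitals. Mrps18a also has the YY1 letters in the searched sequence, but not within the 250 bases shown.
Mrpl30, chr1:37890227-37890476: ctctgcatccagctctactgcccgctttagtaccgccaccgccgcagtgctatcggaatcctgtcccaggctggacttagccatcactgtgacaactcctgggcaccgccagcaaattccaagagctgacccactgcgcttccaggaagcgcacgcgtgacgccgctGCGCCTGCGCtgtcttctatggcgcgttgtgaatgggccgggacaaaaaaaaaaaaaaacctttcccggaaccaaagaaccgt
Mrpl12, chr11:120484387-120484636: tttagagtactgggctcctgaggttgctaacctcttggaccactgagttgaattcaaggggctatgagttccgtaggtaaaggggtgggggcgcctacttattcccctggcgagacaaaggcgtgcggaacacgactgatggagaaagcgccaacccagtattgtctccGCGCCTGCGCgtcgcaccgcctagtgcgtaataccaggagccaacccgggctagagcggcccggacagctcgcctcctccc
Mrps18a, chr17:46110754-46111003: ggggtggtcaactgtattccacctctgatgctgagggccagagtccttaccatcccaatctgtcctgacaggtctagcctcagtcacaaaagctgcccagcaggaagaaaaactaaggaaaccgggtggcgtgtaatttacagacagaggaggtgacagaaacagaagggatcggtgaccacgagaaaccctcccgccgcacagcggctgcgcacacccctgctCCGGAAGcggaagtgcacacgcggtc
Genes with and without the NRF1 letters had similar ratios in the libraries numbered 4. The median ratio of labelled knockout 4 to the mean of labelled knockout 1 to 3 was 1.61 for the 13 genes with the NRF1 letters and 1.62 for the 56 without, and that of control 4 to controls 1 to 3 was 1.99 and 2.00. The ratios with and without the letters were 1.71 and 1.59 in labelled knockout for ETS, and 1.47 and 1.72 for YY1. In control they were 2.03 and 1.90 for ETS, and 1.91 and 2.02 for YY1. These differences were not tested.

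The genotype comparison asked whether these genes differed with the labelled genotype. With all 8 libraries, 0 of the 78 genes were higher and 0 lower past the threshold (edgeR quasi-likelihood F test, Benjamini-Hochberg adjusted over the 12837 genes tested, adjusted p under 0.05). The share called over all genes was 0%, so the count says nothing particular about these genes; at an unadjusted p under 0.05 there were 0 of 78 against 631 of 12837 (4.92%), and DESeq2 called 0 of 78 against 171 of all genes (1.33%). The groups overlapped for all 78, while they did not for 461 of 12837 genes (3.59%). For 75 of the 78, both libraries numbered 4 were above the 6 others, as for 34.2% of all genes tested. That order makes the groups overlap whatever the genotype does, so the overlap of the 78 says nothing on a difference by genotype. The median log2 fold change, labelled knockout over control, was -0.08 with 14 of 78 positive, against -0.02 and 46.7% over all genes tested, and single values ran from -0.66 for Mrps6 to 0.12 for Mrpl27. The median standard error was 0.31, so that the 95% interval lay within 1 log2 unit of 0 on both sides for 62 genes but within 0.5 for only 8.

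That median turned on the libraries numbered 4. Without control 4 it was 0.20, with 74 of 78 genes positive, and without labelled knockout 4 it was -0.31, with 0 positive; in neither fit was any of the 78 called, against 0.293% and 0.185% of all genes. By pairs of the same number, the median difference was -0.03, 0.07, 0.01 and -0.29 log2 units in numbers 1 to 4, with 35, 51, 41 and 5 of 78 genes higher in labelled knockout. When the number was taken as a block, 0 of 78 were called higher against 1.31% of all genes, and 0 lower against 1.18%, 2.49% together, and Mrpl30 came nearest, with an adjusted p of 0.058. With the block the interval lay within 0.5 log2 units of 0 for 65 of the 78 genes.

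In numbers 1 to 3 the spread was smaller, with a median standard error of 0.10. There 0 of the 78 genes were higher and 1, Mrpl30, was lower (edgeR, adjusted over 12919 genes), against 7.78% and 6.29% of all genes, 14.1% together. The groups did not overlap for 21 of 78 (26.9%), 9 of them higher and 12 lower in labelled knockout, against 34.6% of all genes tested. The median log2 fold change was 0.03 with 44 of 78 positive, and the 95% interval lay within 1 log2 unit for all 78 and within 0.5 for 66. With the block as well, 2 genes were higher, Mrpl45 and Mrps15, and 3 lower, Mrpl23, Mrpl30 and Mrpl52, against 12.3% and 11.9% of all genes, 24.2% together. The shares called among these genes thus lay below those of all genes tested in both fits.

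**Figure D2:**
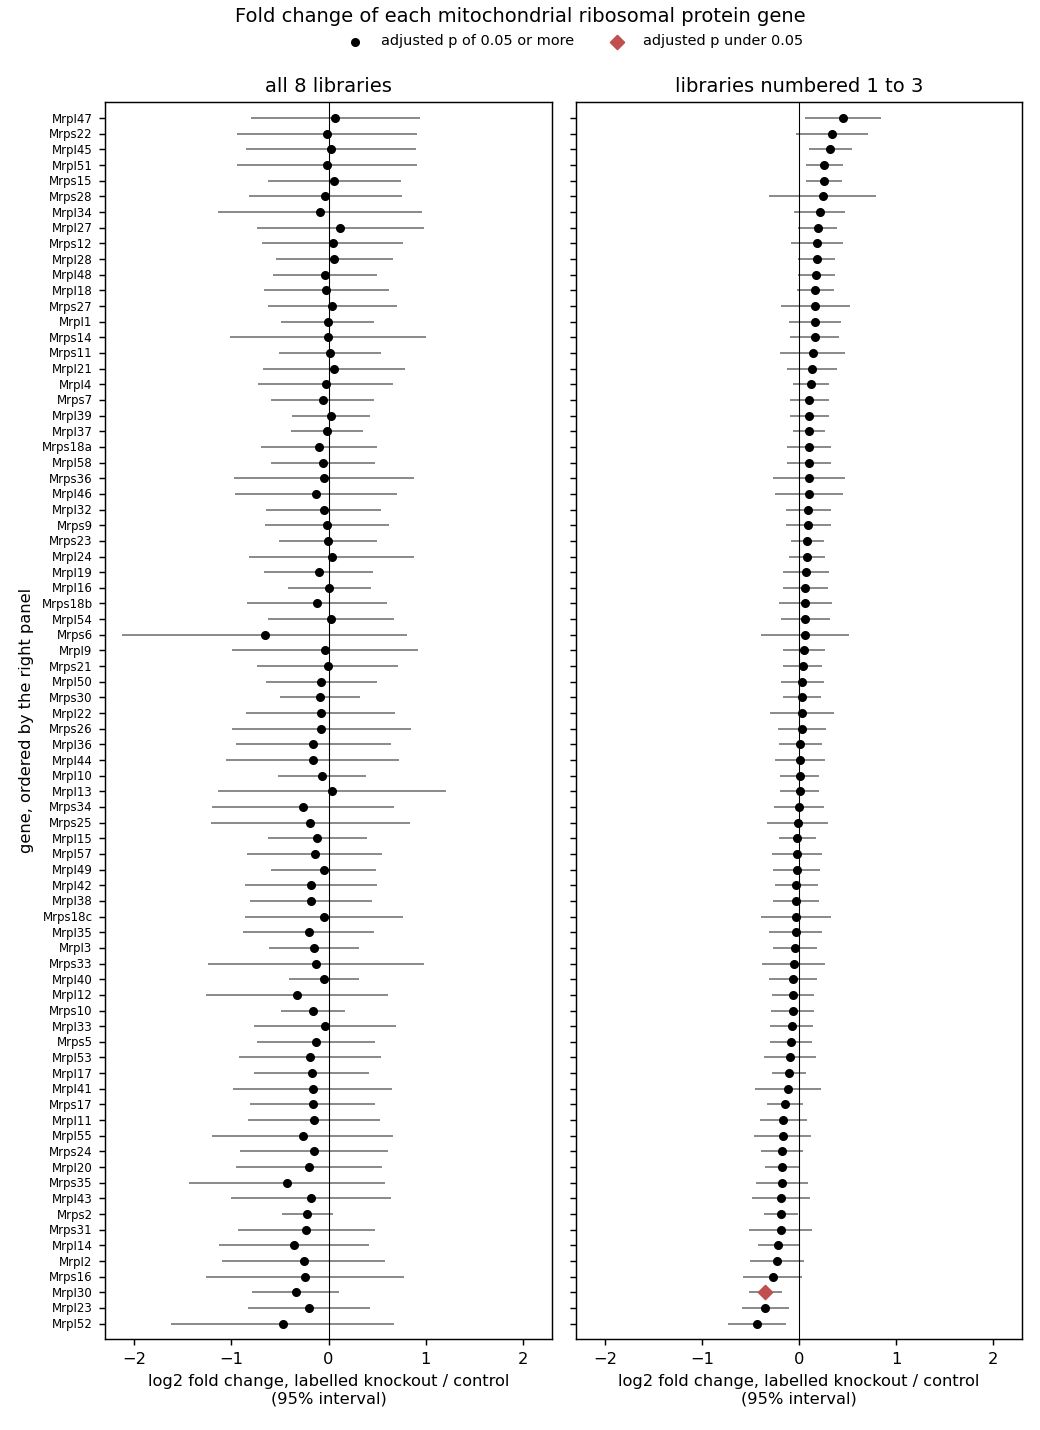
Log2 fold change, labelled knockout over control, of each of the 78 genes with its 95% interval from the edgeR fit, with all 8 libraries (left) and with numbers 1 to 3 (right), both ordered by the right panel. On the left all intervals include 0, and on the right the intervals are shorter and Mrpl30 (diamond) is the 1 gene with an adjusted p under 0.05.

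Among large-subunit proteins, Mrpl30, the counterpart of a bacterial protein of the same number, was the 1 gene called in numbers 1 to 3. It spans bases 37890477 to 37898535 of the plus strand of chromosome 1 (GRCm38), with no exon overlap recorded and the start of Mitd1 66 bases away on the other strand. Its level was 25.6, 26.4, 26.7 and 38.7 CPM in labelled knockout 1 to 4 and 35.1, 31.8, 33.3 and 48.0 CPM in controls 1 to 4. Each library labelled knockout was below the control of its own number, and labelled knockout 4 was above controls 1 to 3, which is where the groups overlap. The log2 fold change was -0.34 with a standard error of 0.19 with all 8 libraries (adjusted p = 0.9999, edgeR; two-sided exact permutation p = 0.114, where the smallest possible is 0.0286) and -0.35 with a standard error of 0.07 in numbers 1 to 3 (adjusted p = 0.017, edgeR).

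Mrpl52, Mrpl23 and Mrpl45 were singled out after their values were seen, because the fit of numbers 1 to 3 with the block called them. Mrpl52, a mitochondria-specific protein (chromosome 14, 54426909 to 54429756, plus strand), was at 18.8, 13.8, 15.8 and 43.0 CPM in labelled knockout and at 19.4, 23.2, 22.9 and 61.4 CPM in control. All labelled-knockout libraries of numbers 1 to 3 were below the 3 controls, by 0.43 on the log2 scale with a standard error of 0.13 (adjusted p = 0.057 without the block and 0.040 with it, edgeR). Mrpl23, whose bacterial counterpart sits beside the exit of the peptide tunnel, was at 17.9, 15.2, 16.1 and 31.8 CPM in labelled knockout and at 20.3, 22.9, 19.4 and 30.2 CPM in control. In numbers 1 to 3 its log2 fold change was -0.35 with a standard error of 0.11 (adjusted p = 0.061 and, with the block, 0.037, edgeR), and in number 4 the order was the other way. Mrpl45, which in mammalian structures holds the ribosome at the inner membrane, was at 28.9, 30.0, 28.2 and 46.8 CPM in labelled knockout and at 25.8, 20.2, 23.8 and 61.7 CPM in control. It was higher by 0.32 log2 units with a standard error of 0.10 in numbers 1 to 3 (adjusted p = 0.063 and, with the block, 0.030, edgeR), and lower in labelled knockout 4 than in control 4.

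**Figure D3:**
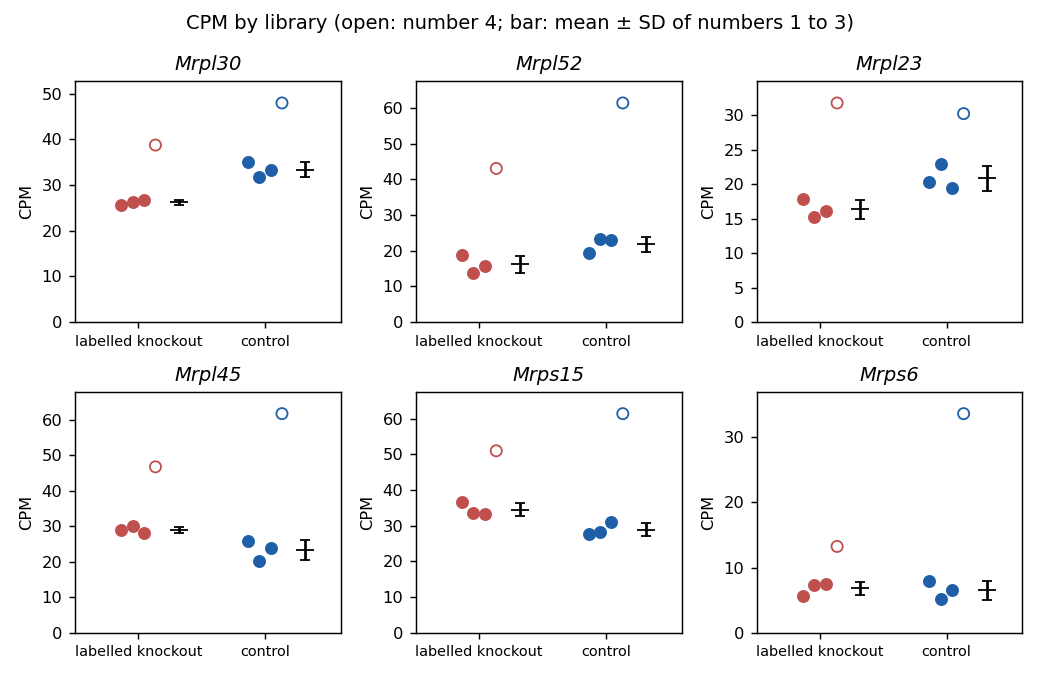
CPM in each library for 6 genes, labelled knockout left and control right; filled points are numbers 1 to 3, open points number 4, and the bar is the mean ± SD of numbers 1 to 3. Mrpl30, Mrpl52 and Mrpl23 were lower and Mrpl45 and Mrps15 higher in labelled knockout 1 to 3 than in controls 1 to 3, Mrps6 overlapped, and the open points lie above the filled ones of their group.

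None of the other large-subunit genes that the naming rule takes was called with all 8 libraries, by edgeR with or without the block, or in numbers 1 to 3. Mrpl14 was at 14.5, 14.2, 13.7 and 24.5 CPM in labelled knockout and at 15.8, 16.8, 16.7 and 36.2 CPM in control. Its groups do not overlap in numbers 1 to 3, but the exons of Tmem63b overlap it on the other strand. Mrpl27, whose bacterial counterpart reaches towards the peptidyl transferase centre, was at 16.5, 16.4, 17.0 and 33.9 CPM in labelled knockout and at 14.4, 14.3, 15.1 and 33.1 CPM in control. Its log2 fold change of 0.12, the most positive of the 78 with all 8 libraries, had a standard error of 0.37. Its groups do not overlap in numbers 1 to 3 (adjusted p = 0.204, edgeR), and each library labelled knockout was above the control of its own number, while the exons of Eme1 overlap it on the other strand. Mrpl21 was at 11.6, 12.1, 13.1 and 21.7 CPM in labelled knockout and at 10.4, 11.3, 12.1 and 22.6 CPM in control, with groups that overlap in numbers 1 to 3. Exons of Ighmbp2 overlap Mrpl21 on the other strand. Mrpl47 was at 7.07, 5.27, 6.33 and 8.30 CPM in labelled knockout and at 4.29, 4.44, 4.95 and 12.1 CPM in control. It had the most positive log2 fold change of numbers 1 to 3, 0.45 with a standard error of 0.17 (adjusted p = 0.125, edgeR), on the lowest counts of the 78, and exons of Actl6a and Ndufb5 overlap it on the other strand.

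Among small-subunit proteins, Mrps2 had the smallest unadjusted p of the 78 with all 8 libraries, 0.094 (edgeR). This gene, on chromosome 2 from 28468066 to 28471178 on the plus strand, encodes the counterpart of a bacterial protein of the same number. It was at 23.9, 25.3, 25.1 and 27.5 CPM in labelled knockout and at 27.3, 29.7, 27.7 and 33.7 CPM in control. Each library labelled knockout was again below the control of its own number, and the groups overlapped only where labelled knockout 4 exceeded control 1. Its log2 fold change was -0.22 with a standard error of 0.12 (adjusted p = 0.9999, edgeR; two-sided exact permutation p = 0.057). Mrps15, whose bacterial counterpart binds the small-subunit RNA early in assembly, was at 36.7, 33.5, 33.4 and 51.0 CPM in labelled knockout and at 27.6, 28.1, 31.1 and 61.4 CPM in control. Within numbers 1 to 3 every library labelled knockout exceeded every control, by 0.26 log2 units with a standard error of 0.08 (adjusted p = 0.067 and, with the block, 0.044, edgeR), and number 4 went the other way.

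Mrps10 and Mrps35 were not called in these fits. Mrps10 was at 14.3, 13.2, 14.8 and 14.9 CPM in labelled knockout and at 14.5, 14.6, 15.2 and 19.5 CPM in control. Its 4 libraries labelled knockout spanned less than 2 CPM, number 4 included. Mrps35, a mitochondria-specific protein, was at 9.49, 9.02, 10.7 and 19.0 CPM in labelled knockout and at 10.7, 11.1, 11.3 and 31.9 CPM in control, a log2 fold change of -0.43 with a standard error of 0.44 (edgeR).

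Mrps6, with the most negative value of the 78, rests on 1 library. It was at 5.64, 7.28, 7.50 and 13.3 CPM in labelled knockout and at 7.99, 5.12, 6.52 and 33.6 CPM in control. Its log2 fold change was -0.66 with a standard error of 0.63 with all 8 libraries and 0.06 with a standard error of 0.20 in numbers 1 to 3; without control 4 alone it was 0.36. Mrps6 shares an exon on the same strand with Slc5a3, a myo-inositol transporter gene that starts inside its first part. Slc5a3 was at 12.4, 17.1, 21.8 and 13.5 CPM in labelled knockout and at 10.9, 12.5, 10.9 and 39.4 CPM in control, and it too was highest in control 4. How reads of the shared exon were assigned is not stated, and its part in the value of Mrps6 was not tested.

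The 3 genes Mrps18a, Mrps18b and Mrps18c are paralogs related to the same bacterial protein, and they occupy different places in the ribosome: Mrps18c the position of that protein, Mrps18b another place in the small subunit and Mrps18a the large subunit. Per length, Mrps18c was at 13.2 ± 5.14 CPM per kilobase in labelled knockout and 13.7 ± 5.76 in control, Mrps18b at 7.03 ± 1.75 in labelled knockout and 7.64 ± 3.40 in control, and Mrps18a at 5.60 ± 0.866 in labelled knockout and 5.99 ± 2.28 in control (SD, n = 4 each). The spreads over libraries overlap between neighbours in that order, but within each of the 8 libraries Mrps18c was highest and Mrps18a lowest. The smallest distance between Mrps18b and Mrps18a was in labelled knockout 1, at 5.43 and 5.35 CPM per kilobase, with Mrps18c at 9.92. With the longest transcript as length Mrps18c was at 17.7, Mrps18b at 14.2 and Mrps18a at 9.63 CPM per kilobase as the mean of 8 libraries. By library, Mrps18c was at 10.7, 11.8, 12.0 and 22.5 CPM in labelled knockout and at 14.7, 10.3, 10.4 and 23.5 CPM in control. Mrps18b was at 11.4, 14.0, 13.5 and 19.9 CPM in labelled knockout and at 11.7, 12.6, 13.0 and 26.6 CPM in control. Mrps18a was at 19.7, 20.5, 17.3 and 25.0 CPM in labelled knockout and at 17.7, 17.1, 18.9 and 34.7 CPM in control. Among numbers 1 to 3 the groups overlapped for all 3, and their log2 fold changes with all 8 libraries were -0.10 for Mrps18a, -0.12 for Mrps18b and -0.05 for Mrps18c, with standard errors of 0.26 to 0.35. Mrps18b and Mrps18c have divergent partners, Ppp1r10 at 45 bases and Helq at 29 bases.

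The difference of the libraries numbered 4 reached nearly every gene of the set. The ratio to the mean of numbers 1 to 3 had a median of 1.61 in labelled knockout, with a range of 1.06 to 2.93, and of 2.00 in control, with a range of 1.19 to 5.14, against 0.99 and 1.01 over all genes tested. Both libraries numbered 4 were above the 6 others for 75 of 78 genes (96.2%), against 34.2% of all genes tested; the exceptions were Mrps2, Mrps10 and Mrps28, all small-subunit proteins with a bacterial counterpart. These are single libraries per group, so the ratios carry no test, and the osteoclast markers given above moved with them; their part in the ratios was not tested. By class the median ratios in labelled knockout and control were 1.72 and 2.01 for large-subunit proteins with a bacterial counterpart, 1.54 and 1.94 for mitochondria-specific large-subunit proteins, 1.62 and 1.94 for small-subunit proteins with a bacterial counterpart, and 1.77 and 2.58 for mitochondria-specific small-subunit proteins.

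Some genes lay far from those medians and were picked for it after their values were seen. Mrpl13 was at 18.1, 18.4, 16.7 and 51.8 CPM in labelled knockout and at 17.8, 17.4, 17.8 and 49.3 CPM in control, ratios of 2.93 and 2.79. Numbers 1 to 3 of both groups lay within 2 CPM of each other, and exons of Mtbp overlap it on the other strand. Mrpl12, the stalk protein of the large subunit, was at 26.8, 27.7, 28.7 and 50.2 CPM in labelled knockout and at 25.3, 29.7, 32.1 and 80.0 CPM in control, ratios of 1.81 and 2.75. Exons of Gm16755 overlap Mrpl12 on the other strand. Mrpl40, a mitochondria-specific protein, was at 15.8, 19.7, 20.2 and 23.8 CPM in labelled knockout and at 19.3, 19.7, 19.3 and 23.8 CPM in control, with ratios of 1.28 and 1.22, among the smallest of the 78. The ratio in control exceeded that in labelled knockout for 69 of 78 genes, and Mrps6, at 1.95 in labelled knockout and 5.14 in control, was furthest from equality.

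**Figure D4:**
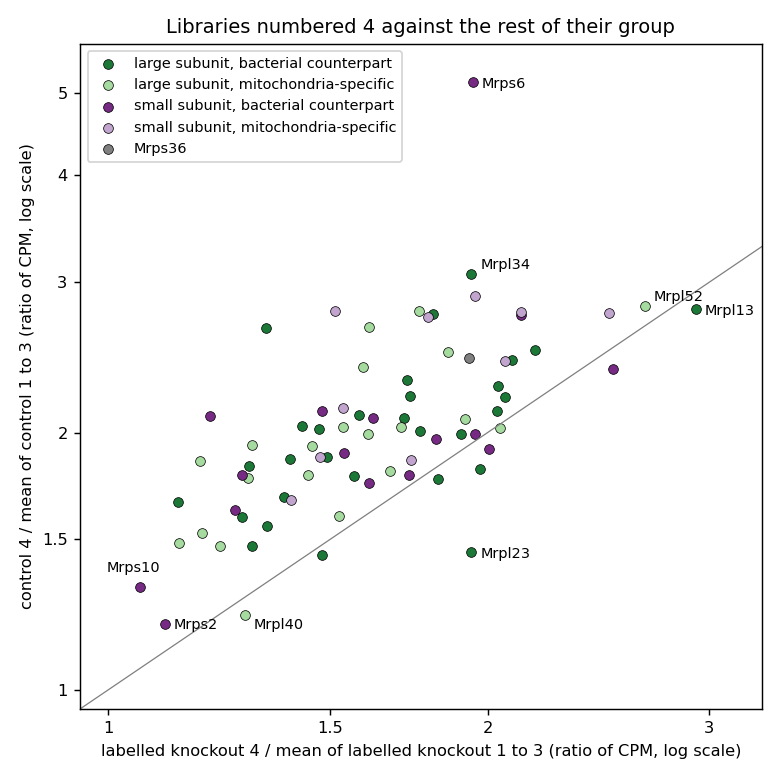
Ratio of the library numbered 4 to the mean of numbers 1 to 3 for each of the 78 genes, in labelled knockout (horizontal, log scale) and control (vertical, log scale), coloured by class; the line marks equal ratios. All points lie above 1 on both axes and most lie above the line, with medians of 1.61 in labelled knockout and 2.00 in control.

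Other genes of mitochondrial translation showed the same absence of calls with all 8 libraries (edgeR, 0% of all genes called). None of the 5 subunits that carry other names was called with all 8 libraries or in numbers 1 to 3. In numbers 1 to 3, 14.1% of all genes were called, and a count of 0 of 5 says little. Their median log2 fold change was -0.04 with all 8 libraries and 0.07 in numbers 1 to 3. Dap3, a GTP-binding subunit, was at 25.9, 28.6, 32.5 and 58.2 CPM in labelled knockout and at 27.0, 31.5, 29.9 and 65.0 CPM in control, and so resembled most Mrp genes in number 4. Ptcd3, an RNA-binding subunit, was at 25.2, 27.3, 26.6 and 26.1 CPM in labelled knockout and at 24.6, 28.5, 22.4 and 32.6 CPM in control, and so did not. With all 8 libraries the median log2 fold change was -0.05 over 26 assembly factors and -0.02 over 16 translation factors. It was -0.01 over 20 mitochondrial tRNA charging enzymes and -0.01 over 10 genes of mitochondrial DNA transcription and replication. Both libraries numbered 4 were above the 6 others for 4 of the 5 other subunits, 18 of 26 assembly factors (69.2%), 15 of 16 translation factors, 14 of 20 charging enzymes and 7 of 10 transcription and replication genes. Over all genes tested that share was 34.2%.

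In numbers 1 to 3, 1 assembly factor was lower and none higher, against 6.29% and 7.78% of all genes. It was Trub2, a pseudouridine synthase linked in human cells to assembly of the large subunit, at 15.9, 16.4, 15.9 and 23.5 CPM in labelled knockout and at 23.9, 18.8, 20.1 and 25.7 CPM in control. Its log2 fold change there was -0.38 with a standard error of 0.11 (adjusted p = 0.0499, edgeR), just under the threshold, and -0.30 with a standard error of 0.18 with all 8 libraries. Gfm2, which helps to recycle the mitochondrial ribosome, was the 1 translation factor called, higher by 0.29 log2 units with the block in numbers 1 to 3 (adjusted p = 0.028, edgeR), a fit that called 12.3% of all genes higher and 11.9% lower. Lrpprc, which stabilizes mitochondrial mRNAs, was at 57.6, 59.3, 58.2 and 71.6 CPM in labelled knockout and at 68.0, 63.5, 63.5 and 88.4 CPM in control, and was not called.

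Of 10 regulators of mitochondrial biogenesis, 9 were tested, since Ppargc1a had at most 6 counts in a library. Myc, a transcription factor that drives ribosome production, was at 37.6, 41.7, 40.0 and 28.3 CPM in labelled knockout and at 53.0, 63.8, 63.9 and 49.4 CPM in control. Its groups did not overlap, as was so for 3.59% of all genes tested. Labelled knockout 4 and control 4 were the lowest of their groups, unlike the ribosomal genes. The log2 fold change of Myc was -0.64 with a standard error of 0.16 with all 8 libraries (adjusted p = 0.51, edgeR, and two-sided exact permutation p = 0.0286, the smallest possible). With the block it was lower past the threshold (adjusted p = 0.033, edgeR), where 1.18% of all genes were called lower. In numbers 1 to 3 it was lower too (-0.60 with a standard error of 0.09, adjusted p = 0.0028, edgeR), where 6.29% of all genes were called lower. Ppargc1b, a coactivator of nuclear genes for mitochondria, was at 4.28, 4.35, 4.22 and 17.8 CPM in labelled knockout and at 5.45, 7.36, 5.47 and 35.6 CPM in control. Both libraries numbered 4 were far above the others, and its log2 fold change of -0.82 had a standard error of 0.80 with all 8 libraries. With the block in numbers 1 to 3, where 12.3% of all genes were called higher and 11.9% lower, 1 of the 9 regulators was higher and 2 were lower, Myc among them. Gabpb2, a subunit of the GABP complex, was higher by 0.21 log2 units (adjusted p = 0.021, edgeR) and Pprc1, a coactivator related to Ppargc1b, was lower (log2 fold change -0.28, adjusted p = 0.0047, edgeR).

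The cytosolic ribosomal proteins had a different pattern. With all 8 libraries 0 of the 77 tested were called, but 0 were positive, and the median log2 fold change was -0.46 against -0.08 for the mitochondrial set. With the number as a block, 49 of 77 were lower, against 0 of the 78 mitochondrial genes and 1.18% of all genes. Without number 4, 72 of 77 were lower and 0 higher, with a median of -0.55, where 1 of 78 mitochondrial genes was lower and the share of all genes called lower was 6.29%. Their summed level was 20613 ± 220 CPM in labelled knockout and 30328 ± 866 CPM in control over numbers 1 to 3 (SD, n = 3 each), while the mitochondrial set differed by less than its SD. Processed pseudogenes make counts of single cytosolic ribosomal protein genes uncertain. The 76 tested nuclear genes of the respiratory chain resembled the mitochondrial ribosomal genes more. Over numbers 1 to 3, 1 was higher and 3 were lower, with a median of -0.02, and both libraries numbered 4 were above the 6 others for 76 of 76, with median ratios of 2.07 in labelled knockout and 2.60 in control. The cytosolic ribosomal proteins had 52 of 77 above in both, with median ratios of 1.68 and 1.33. Among all genes tested, 34.2% were above in both. The difference between these lists was not tested.

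**Figure D5:**
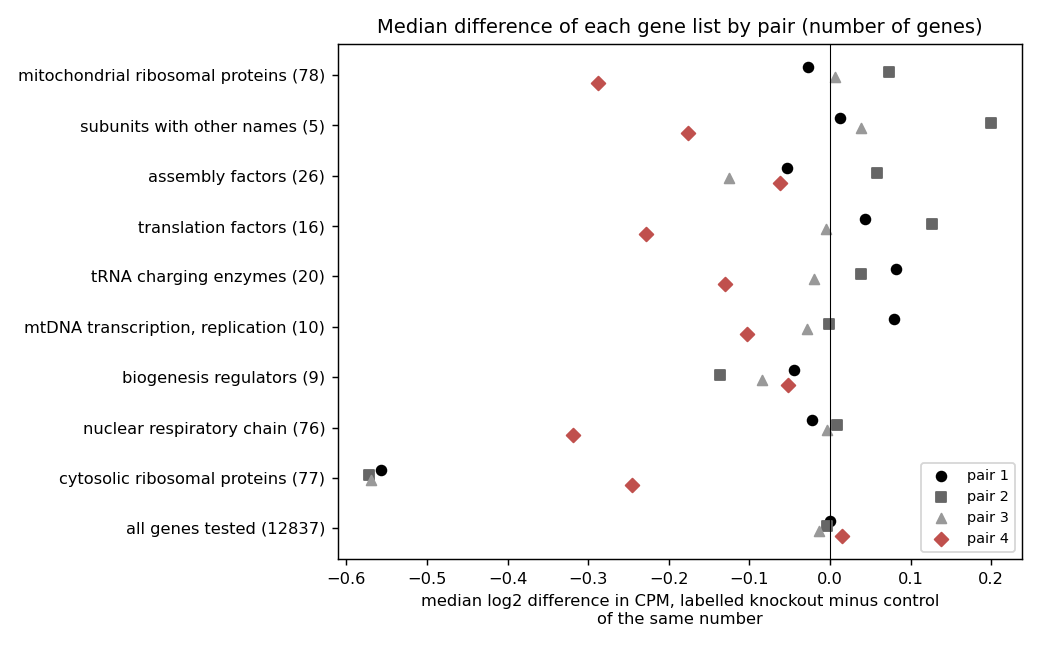
Median over each list of the log2 difference in CPM, labelled knockout minus control of the same number, for pairs 1 to 4; the number of genes tested is in brackets. The mitochondrial ribosomal proteins lie near 0 in pairs 1 to 3 and at -0.29 in pair 4, the respiratory chain genes at -0.32 in pair 4, and the cytosolic ribosomal proteins at -0.56 to -0.57 in pairs 1 to 3 and -0.25 in pair 4.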

How the data were processed

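RNA sequencing counts of 8 libraries were used. Groups and numbers came from the sample titles. The authors deposited read counts per gene symbol, whole numbers with no normalization; per the submitters' processing notes they were made with STAR 2.7.11b and featureCounts 2 on GRCm38 (mm10). Strand, annotation and the handling of reads with several alignments are not stated there. Of 25239 symbols, 24321 matched 1 gene of GENCODE M21, which gave coordinates and lengths.

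Genes were filtered with filterByExpr by group (12837 left), scaled with TMM and tested with edgeR 4.0.16 in R 4.3.3 (robust quasi-likelihood F test, genotype alone, Benjamini-Hochberg over all genes, adjusted p under 0.05). CPM used TMM factors, and for single genes log2 CPM (prior count 2) was permuted exactly over the libraries, two-sided. The alternatives were DESeq2 1.42.0, limma 3.58.1 voom with and without quality weights, other scalings and filters, each library or number left out, and the number as a block. The code was tested on simulated data.

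Same-numbered libraries correlated in their deviations from the group means with r of 0.45 to 0.83 over all 8 libraries and of 0.16 to 0.38 among numbers 1 to 3, each over 0.1. Unlike numbers of 1 to 3 correlated at 0.41 to 0.57 over all 8 libraries, so that range is no sign of pairing, and at -0.26 to -0.02 among numbers 1 to 3. The numbers were treated as pairs on the values of numbers 1 to 3, since no label says so. Deviations from a group mean cancel out within the group, so positive values for same numbers push those of unlike numbers down. That contrast is therefore no test of the pairing, which remains an assumption of the fits with the block. No pair of libraries within a group was alike to within counting error, so each counted as 1 sample. Named genes are the 5 members per direction with the smallest unadjusted p, members called with or without the block, the 3 highest and lowest per length, the Mrps18 paralogs and up to 3 per related list; Mrpl52, Mrpl23, Mrpl45, Mrpl12, Mrpl13, Mrpl40 and other genes called in numbers 1 to 3 were named after their values were seen. Members and lists were chosen with earlier results of these data known.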

Additional observations from a re-analysis of the deposited data

Results flagged for a closer look

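A library was taken to stand apart when its gap to the nearest other library of its group passed Dixon's 95% critical share of the group's range for 4 samples, which chance gives in about 1 of 20 groups. This was so in 31 of the 46 groups of the summed level and of the 22 named genes of the set, and all 31 were the library numbered 4, on the high side. These groups are the same libraries seen through different genes, and the sum is made of such genes. They are therefore not independent, and their count is a description that cannot be set against the share given by chance. Of those genes, 6 were named after their values were seen, and 10 of the 31 fall on them; without them it was 21 of 34 groups. The summed level of the 78 genes was 2287 CPM in labelled knockout 4, where the other libraries of the group were at 1383 to 1417 CPM, and 2801 CPM in control 4, where the others were at 1361 to 1432 CPM.

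In both groups number 4 stood apart for 8 genes. Its level in labelled knockout 4 and in control 4 was, in that order, 24.5 and 36.2 CPM for Mrpl14, 33.9 and 33.1 CPM for Mrpl27, 21.7 and 22.6 CPM for Mrpl21, 19.0 and 31.9 CPM for Mrps35, 43.0 and 61.4 CPM for Mrpl52, 46.8 and 61.7 CPM for Mrpl45, 50.2 and 80.0 CPM for Mrpl12 and 51.8 and 49.3 CPM for Mrpl13. In labelled knockout alone it stood apart for Mrpl30 at 38.7 CPM, Mrpl28 at 47.3 CPM, Mrps18c at 22.5 CPM and Mrpl23 at 31.8 CPM. In control alone it stood apart for Mrps10 at 19.5 CPM, Mrps6 at 33.6 CPM, Mrps15 at 61.4 CPM, Mrpl47 at 12.1 CPM, Mrps21 at 45.8 CPM, Mrpl34 at 37.2 CPM, Mrps18a at 34.7 CPM, Mrps18b at 26.6 CPM and Mrpl40 at 23.8 CPM. Whether the groups differ in this was not tested.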

How the results depend on the processing

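With all 8 libraries, 0 of the 78 genes were called in either direction by edgeR under TMM, RLE and no scaling, with no count filter, with at least 1 CPM in 4 libraries, by DESeq2 and by limma-voom; limma-voom with quality weights called 1 lower, Mrpl30 (adjusted p = 0.0085), where it called 16.1% of all genes. Leaving out libraries or numbers, with and without the block, gave 0 to 2 higher and 0 to 3 lower; all of these calls came without number 4. Over all genes, the counts of 0 higher and 0 lower became 123 and 48 with DESeq2 and 1100 and 961 with limma-voom with quality weights, and ranged from 0 to 1593 higher and 0 to 1539 lower when libraries or numbers were left out, the fits without number 4 giving 1005 and 812 without the block. With the replicate number as a block, an analysis that assumes the pairing, 0 of the 78 were called in either direction, 168 of all genes were higher and 151 lower, and the median log2 fold change of the 78 was -0.05. That median, -0.08 in the fit without the block, was -0.09 to 0.01 in the other fits of all 8 libraries and -0.31 to 0.20 when libraries were left out. Of 984 combinations of the 41 named genes with an alternative, 16 gave a call, in settings that called 1.33% to 24.2% of all genes. Mrpl52, Mrpl23 and Mrpl45 were named because 1 of these settings called them, so the count is partly set by the choice of genes. Another 109 combinations changed the sign of a value that was not called, and the cause was not tested. Motif shares on the gene strand alone were 11.6% for NRF1, 21.7% for ETS and 13.0% for YY1. Among the genes tested with a promoter they were 6.85%, 11.2% and 5.17% on that strand.

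Each gene had at least 79 counts in each library, and how much of the spread is counting error was not tested; the median standard error of the 78 was 0.31 with number 4 and 0.10 without it. The number of animals per library, the labels' genotype, the share of each cell type and the strand of counting could not be checked from these files.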
